A study of Homo sapiens with 84 samples.

Results

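RMI2, RASSF6, SUN2, FGD3, RCSD1 and RUBCNL are 6 genes of the 12441 measured in 8 lymphoma cell lines. They were selected on measured values of these arrays: their level was higher with the drug PQR309 than with its solvent DMSO in every line, and their mean difference was among the largest of the genes with that pattern. The PQR309 minus DMSO values of these genes therefore describe the choice and carry no test. RMI2 is a subunit of the complex of BLM helicase and topoisomerase III alpha that undoes recombination intermediates in DNA. SUN2 spans the inner nuclear membrane and links the nuclear lamina to the cytoskeleton through the LINC complex. RASSF6 is a Ras-association domain protein that binds the MST kinases of the Hippo pathway and promotes cell death. FGD3 belongs to a family of exchange factors that activate the small GTPase CDC42. RCSD1, also called CapZIP, binds the protein that caps the growing ends of actin filaments. RUBCNL, also called Pacer, promotes the maturation of autophagosomes through the class III PI3K complex and the tethering factors of the lysosome.

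PQR309 is described in the labels as an inhibitor of PI3K and mTOR. PI3K makes a membrane lipid that activates the kinase AKT, and AKT keeps FOXO transcription factors in the cytoplasm by phosphorylating them. mTOR drives protein synthesis and restrains autophagy. In B cells PI3K acts downstream of the B-cell receptor together with the kinase BTK.

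The 84 Illumina bead arrays came from established human lymphoma cell lines treated in culture for 4, 8 or 12 h. All 8 lines (RIVA, TMD8, SUDHL2, U2932, OCILY1, OCILY18, DOHH2 and SUDHL10) received DMSO or PQR309, with 24 arrays for each. RIVA, TMD8, SUDHL2 and U2932 also received idelalisib, an inhibitor of PI3K delta, duvelisib, an inhibitor of PI3K delta and gamma, or ibrutinib, an inhibitor of BTK, with 12 arrays for each. Each line, time and treatment had 1 array, no dose is stated in the labels used here, and nothing says that cultures were separate, so the tests measure the spread between lines. The 8-line values are the authors' normalized log2 levels of 48 arrays. The 4-line values come from raw intensities of 60 arrays. Their DMSO and PQR309 intensities rank the probes otherwise than the normalized values with the same sample labels, and were taken as other arrays. At the probe level 4 of 5 B-cell markers on the array lay above the detection limit of 6.73 on the log2 scale, while 0 of 4 T-cell markers, 2 of 4 myeloid markers and 0 of 3 stromal markers did. Of the myeloid markers, CD68 had a mean log2 level of 9.09.

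Windows around the start of 2 of the genes are shown because they hold a forkhead motif, the kind of sequence that FOXO factors are known to bind. RefSeq windows of 300 bases (250 before and 50 after an annotated start, build GRCh38.p14) were at hand for RASSF6, SUN2, FGD3, RCSD1 and RUBCNL, 12 windows in all, and were searched on both strands for TGTTTAC, the core of the forkhead site, its variant TGTTTGC, and the E-box CACGTG. The core occurred only in RASSF6, in 2 of 2 windows, which overlap and hold the same match. The variant occurred only in FGD3, in 2 of 4 windows. The 3 windows of SUN2, the 1 window of RCSD1 and the 2 windows of RUBCNL held none of the 3 motifs, and none of the 12 windows held the E-box. Among all 35116 windows of the table, TGTTTAC occurred in 3.42%, TGTTTGC in 3.89% and CACGTG in 7.26%. The windows below run 5′ to 3′ along the gene, and capitals mark the match, which in RASSF6 reads GTAAACA because it lies on the opposite strand, its first base 19 bases before the start. In the FGD3 window the first base of the match lies 144 bases before the start. A match is a run of letters and not a measured binding site.
RASSF6, minus strand, chr4:73620582-73620881: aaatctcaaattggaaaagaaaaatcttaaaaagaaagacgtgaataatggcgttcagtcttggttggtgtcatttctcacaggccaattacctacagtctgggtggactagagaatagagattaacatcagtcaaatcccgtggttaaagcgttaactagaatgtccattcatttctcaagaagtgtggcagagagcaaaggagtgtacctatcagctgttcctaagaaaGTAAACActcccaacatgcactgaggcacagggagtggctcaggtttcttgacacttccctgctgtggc
FGD3, plus strand, chr9:92964043-92964342: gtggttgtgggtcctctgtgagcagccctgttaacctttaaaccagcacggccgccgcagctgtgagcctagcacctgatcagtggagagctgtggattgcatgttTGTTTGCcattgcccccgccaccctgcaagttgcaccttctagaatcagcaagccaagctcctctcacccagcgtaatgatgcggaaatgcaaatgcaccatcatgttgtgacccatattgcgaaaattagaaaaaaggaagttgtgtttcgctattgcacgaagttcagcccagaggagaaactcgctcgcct

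RMI2 (probe ILMN_1790537) was higher with PQR309 in all 8 lines at all 3 times. Over the 24 DMSO arrays its log2 level ran from 8.08 to 9.90 with a median of 9.14, and over the 24 PQR309 arrays from 8.79 to 10.56 with a median of 10.07. The 2 ranges overlap, and the lines differ in level. Within a line the 3 PQR309 arrays lay above the 3 DMSO arrays in 7 of 8 lines, the exception being OCILY18, where the DMSO array at 4 h was high (9.90). The mean difference was 0.79 on the log2 scale (SD 0.21 over lines, n = 8), a fold of 1.73. An array measures RNA of a whole culture, so more cells carrying an RNA and more RNA per cell cannot be told apart. By line it was 1.09 in RIVA, 1.03 in DOHH2, 0.86 in OCILY1, 0.79 in U2932, 0.75 in SUDHL10, 0.72 in TMD8, 0.69 in OCILY18 and 0.40 in SUDHL2. The lowest of its 24 line and time differences was 0.35.

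SUN2 (probe ILMN_2099301) had log2 levels from 8.39 to 10.23 (median 9.22) on the DMSO arrays and from 8.72 to 10.88 (median 9.87) on the PQR309 arrays. The mean difference was 0.72 (SD 0.22, n = 8), a fold of 1.65. It ranged from 0.40 in SUDHL2 to 0.94 in DOHH2. At single times 22 of 24 differences were above 0. The exceptions were OCILY1 at 4 h (-0.29), where the DMSO array stood at 10.23 and the PQR309 array at 9.94, and SUDHL10 at 8 h (-0.014). The 3 PQR309 arrays of a line lay above its 3 DMSO arrays in 5 of 8 lines.

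RASSF6 had the largest SD over lines in its PQR309 minus DMSO difference. DMSO levels on the log2 scale ran from 6.61 to 10.40 (median 8.58), and PQR309 levels from 6.69 to 11.37 (median 9.38). DOHH2 was highest and SUDHL10 lowest, and in SUDHL10 the level lay below the detection limit on 2 of 3 DMSO arrays and 1 of 3 PQR309 arrays, so that the gene was hardly measured there. The mean difference was 0.75 (SD 0.52, n = 8), a fold of 1.68. It was 1.47 in U2932, 1.37 in OCILY1, 1.01 in DOHH2, 0.83 in OCILY18, 0.63 in RIVA, 0.44 in TMD8, 0.16 in SUDHL2 and 0.066 in SUDHL10. RASSF6 is thus higher in all 8 lines only as a mean over the times, and in SUDHL10 at 4 h its difference was -0.043. The gene has 4 probes on the array. The brightest, ILMN_1745820, gave the mean difference of 0.75. The others gave 0.54 (above 0 in 6 of 8 lines), 0.53 (7 of 8) and 0.057 (7 of 8). The last came from a probe with a mean log2 level of 6.67, below the detection limit. Averaged over its 4 probes, RASSF6 had a mean difference of 0.47.

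FGD3 (probe ILMN_1772686) had log2 levels from 7.30 to 9.64 (median 8.49) with DMSO and from 8.03 to 10.70 (median 9.16) with PQR309. Its mean difference was 0.70 (SD 0.29, n = 8), a fold of 1.62, from 0.23 in SUDHL10 to 1.02 in OCILY18. At single times 22 of 24 differences were above 0, the exceptions being OCILY1 at 4 h (-0.011) and SUDHL10 at 8 h (-0.078). FGD3 and SUN2 therefore fell short at the same line and time pairs. The DMSO array of OCILY1 at 4 h was the highest of that line's 3 DMSO arrays for both genes, at 9.42 for FGD3 and 10.23 for SUN2.

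RCSD1 (probe ILMN_1749006) had log2 levels from 6.81 to 9.51 (median 8.12) with DMSO and from 7.11 to 10.76 (median 8.86) with PQR309. The mean difference was 0.69 (SD 0.30, n = 8), a fold of 1.62, and all 24 single differences were above 0. The largest line mean was 1.17 in OCILY1 and the smallest 0.21 in SUDHL2. RUBCNL (probe ILMN_1773388) had the largest mean difference of the 6 genes, 0.85 (SD 0.46, n = 8), a fold of 1.80. Its log2 levels ran from 7.39 to 11.50 (median 9.36) with DMSO and from 8.01 to 11.82 (median 10.44) with PQR309. The difference ran from 0.18 in SUDHL2 to 1.63 in OCILY1, and all 24 single differences were above 0. The other, dimmer probe of RUBCNL gave a mean difference of 0.84. Within a line, all PQR309 arrays lay above all DMSO arrays in 7 of 8 lines for RUBCNL. The same held in 6 of 8 lines for RCSD1 and RASSF6 and in 5 of 8 for FGD3.

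**Figure D1:**
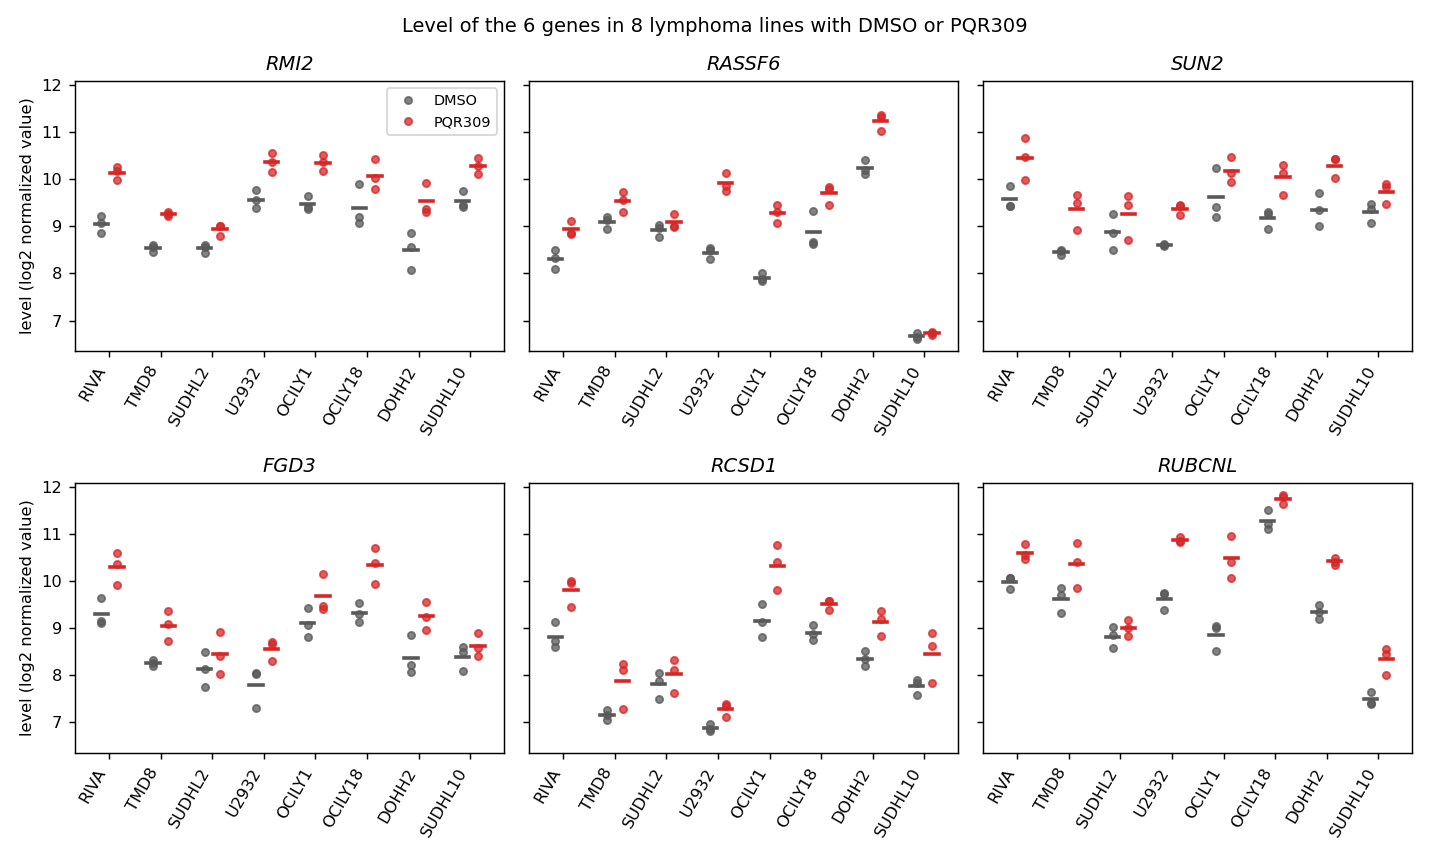
Log2 level of each gene (vertical axis) in each line (horizontal axis). Points are single arrays at 4, 8 and 12 h, grey for DMSO and red for PQR309, and short bars are means of the 3 times. In RMI2 the red points lie above the grey ones in 7 of 8 lines, while in RASSF6 the SUDHL10 arrays sit at the detection limit of 6.73.

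The place of these genes depends on how steadiness is judged. Of 12441 genes, 1002 (8.05%) were higher with PQR309 in each of the 8 lines, as a mean over the times. Among these, by mean difference, the 6 genes held places 4 (RUBCNL), 6 (RMI2), 7 (RASSF6), 8 (SUN2), 9 (FGD3) and 10 (RCSD1). Places 1, 2, 3 and 5 were held by PIM1 at 1.01, CXCR4 at 0.99, YPEL3 at 0.87 and KLHL24 at 0.84, which are not among the 6 genes. The genes just below the set were HBP1 at 0.68, CCDC28A at 0.66 and TP53INP1 at 0.65. Ordered by the weakest line instead, RMI2 and SUN2 held places 1 and 2, with 0.40 for each in SUDHL2. FGD3 then held place 22, RCSD1 38, RUBCNL 70 and RASSF6 365. Over all members, 139 of 144 line and time differences were above 0.

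SUDHL2 gave the smallest difference for 4 of the 6 genes and the next to smallest for RASSF6 and FGD3. The mean over the 6 genes was 0.28 there, against 0.50 in SUDHL10, 0.72 in TMD8, 0.75 in OCILY18, 0.86 in RIVA, 0.91 in U2932, 0.95 in DOHH2 and 1.03 in OCILY1. The 1002 genes that were higher in all lines also had their smallest medians in SUDHL2 (0.11) and SUDHL10 (0.13), against 0.20 to 0.25 in the other 6 lines. The order of the remaining lines was not shared by the genes: U2932 was first for RASSF6 and seventh for RCSD1, and OCILY1 was first for RCSD1 and RUBCNL and sixth for SUN2 and FGD3.

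The line order of the DMSO level differed between the genes as well. For RUBCNL, OCILY18 was highest, with a mean log2 level of 11.26, and SUDHL10 lowest at 7.48, and each was separated from its neighbour by the range of its 3 times. For RASSF6, DOHH2 (10.23) and SUDHL10 (6.67) were set apart in the same way. RCSD1 was highest in OCILY1 (9.15), whose range over the times overlapped that of OCILY18 (8.90), and lowest in U2932 (6.88), below TMD8 (7.16) without overlap. RMI2 fell into an upper group from U2932 (9.57) to RIVA (9.05) and a lower group of TMD8, SUDHL2 and DOHH2 (8.54, 8.54 and 8.50), with overlap between neighbours inside each group and none between them. In SUN2, OCILY1 (9.61) was highest and TMD8 (8.46) lowest, and only U2932 and TMD8 were separated as neighbours. FGD3 was highest in OCILY18 (9.32) and lowest in U2932 (7.79). Only OCILY1 (9.10) and SUDHL10 (8.39) were separated as neighbours, and the highest DOHH2 array (8.84) lay above the lowest OCILY1 array (8.81).

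RIVA, TMD8, SUDHL2 and U2932 were also compared as a group with the remaining 4 lines, a split that follows the treatment plan in the labels. By limma over all 12441 genes, 0 of the 6 genes differed in DMSO level between these groups of lines (background 0%, adjusted p from 0.78 to 0.97), and 0 differed in the size of the PQR309 difference (background 0%, adjusted p 0.998 for each). The genes were chosen for a rise in each of these lines, so only the size of the rise could differ. The test of the PQR309 difference therefore cannot show that the rise is alike in both groups. At an unadjusted p under 0.05, 787 and 543 of all genes passed in these comparisons. The interval of the group difference was wide: for RCSD1, the level in the lines given every inhibitor was lower by 0.88 with a 95% interval from -1.98 to 0.23. In the PQR309 difference, RUBCNL was lower in that group by 0.31, with an interval from -0.91 to 0.29.

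The other DMSO and PQR309 arrays of RIVA, TMD8, SUDHL2 and U2932 were read in the same way. There the mean PQR309 minus DMSO difference was 0.86 for RMI2, 0.82 for FGD3, 0.78 for SUN2, 0.76 for RASSF6, 0.70 for RCSD1 and 0.68 for RUBCNL (n = 4 lines), against 0.75, 0.72, 0.74, 0.67, 0.58 and 0.70 in the same 4 lines by the authors' normalized values. Each gene was above 0 in all 4 lines. Whether both sets of arrays used the same RNA is not stated, so the second set is no separate sample.

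Whether drugs against single parts of the pathway also raised the genes was tested in the 4 lines, in 1 limma fit of the 20 line means with the line as a block (n = 4 lines, mean of the 3 times, adjusted over 12559 genes). The DMSO samples share their labels with those used to choose the genes, so these tests are not fully apart from the choice, and the 3 inhibitors share the same DMSO arrays. With idelalisib 1 of the 6 genes was called higher and 0 lower, where 2.75% of all genes were called higher and 1.92% lower. With duvelisib 0 were called, where 0.0159% of all genes were called higher and 0% lower. With ibrutinib 0 were called, where 1.19% were called higher and 1.78% lower. The mean differences of the 6 genes were above 0 with each of the 3 drugs, with a median of 0.34 for idelalisib, 0.44 for duvelisib and 0.34 for ibrutinib, while the median of all genes was 0.0060, 0.0064 and -0.0016.

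RMI2 was the gene that idelalisib raised past the threshold. Its log2 levels at 4, 8 and 12 h were 9.63, 9.18 and 9.44 with DMSO and 9.88, 10.16 and 10.28 with idelalisib in RIVA. In U2932 they were 9.54, 9.51 and 9.99 with DMSO and 9.67, 10.01 and 10.17 with idelalisib. The idelalisib arrays were above the DMSO array of the same time in both lines, though the ranges overlap in U2932. TMD8 had 7.96, 8.38 and 8.19 with DMSO and 8.19, 8.71 and 8.47 with idelalisib, again higher at each time. In SUDHL2, with 8.87, 8.11 and 8.59 against 8.67, 8.76 and 8.57, the idelalisib array was higher at 8 h and lower at 4 and 12 h. The difference was 0.69 in RIVA, 0.28 in TMD8, 0.27 in U2932 and 0.14 in SUDHL2. Its mean of 0.35 ± 0.09 (SE) had an adjusted p of 0.0415 by limma. This SE pools the spread between lines over all 5 treatments of the fit. From the 4 line differences of each drug alone, the SE was 0.12 with idelalisib, 0.13 with duvelisib and 0.067 with ibrutinib. The call was lost without RIVA (0.23, adjusted p 0.254), without TMD8 (0.37, adjusted p 0.131) and without U2932 (0.37, adjusted p 0.102). RMI2 was also higher by 0.40 ± 0.09 with duvelisib (adjusted p 0.0852) and by 0.35 ± 0.09 with ibrutinib (adjusted p 0.0504), in 4 of 4 lines each, which does not pass the threshold. Without SUDHL2, RMI2 passed with duvelisib (0.50, adjusted p 0.0474) and with ibrutinib (0.41, adjusted p 0.0449).

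RASSF6 was above 0 in 4 of 4 lines with each drug, by a mean of 0.32 with idelalisib, 0.50 with duvelisib and 0.43 with ibrutinib, with limma adjusted p from 0.0747 to 0.157. RUBCNL had mean differences of 0.18, 0.45 and 0.34 in the same order. It was above 0 in 4 of 4 lines with duvelisib and ibrutinib and in 3 of 4 with idelalisib, and without SUDHL2 it passed with duvelisib (0.59, adjusted p 0.0465). RCSD1 stood at 0.39, 0.42 and 0.41, with RIVA the highest line each time (1.04, 1.27 and 0.90) and SUDHL2 below 0 each time. None of the 3 genes passed the threshold with all 4 lines.

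For SUN2 and FGD3 the 4 lines lay far apart. With idelalisib SUN2 differed from DMSO by 0.94 in TMD8, 0.50 in U2932, -0.03 in RIVA and -0.48 in SUDHL2. With ibrutinib it differed by 0.80, 0.42, -0.26 and -0.16 in the same order. FGD3 followed the same split, with 1.23 in TMD8, 0.58 in U2932, 0.08 in RIVA and -0.44 in SUDHL2 for idelalisib, and 1.09, 0.46, -0.36 and -0.54 for ibrutinib. With duvelisib only SUDHL2 was below 0, with SUN2 at 0.79, 0.73, 0.18 and -0.12 and FGD3 at 1.08, 0.84, 0.43 and -0.32 in the same order. Neither gene passed with any of the 3 drugs by limma (adjusted p from 0.252 to 0.663). Part of the RIVA values lies at 4 h, where SUN2 stood at 10.14 with DMSO, 9.30 with idelalisib and 9.38 with ibrutinib. Part of the TMD8 values lies at 12 h, where the DMSO array was the lowest of that line's 3 DMSO arrays for both genes. SUN2 stood there at 8.70, against 9.10 at 4 h and 9.62 at 8 h, and FGD3 at 8.36, against 8.73 and 9.33. With the 12 h arrays of TMD8 left out, a setting chosen after seeing the data, the TMD8 difference of SUN2 was 0.54 with idelalisib, 0.31 with duvelisib and 0.29 with ibrutinib, and that of FGD3 0.77, 0.47 and 0.49. The mean over the 4 lines then moved for SUN2 from 0.23 to 0.13 with idelalisib and from 0.20 to 0.073 with ibrutinib, and for FGD3 from 0.16 to 0.013 with ibrutinib. Neither gene passed in that setting, and RMI2 kept its call with idelalisib (0.35, adjusted p 0.0458 by limma).

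In SUDHL2 the mean over the 6 genes was -0.17 with idelalisib, -0.072 with duvelisib and -0.088 with ibrutinib, against 0.34 with PQR309 on the same arrays. In the other 3 lines it lay between 0.24 (RIVA, ibrutinib) and 0.68 (RIVA, duvelisib).

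**Figure D2:**
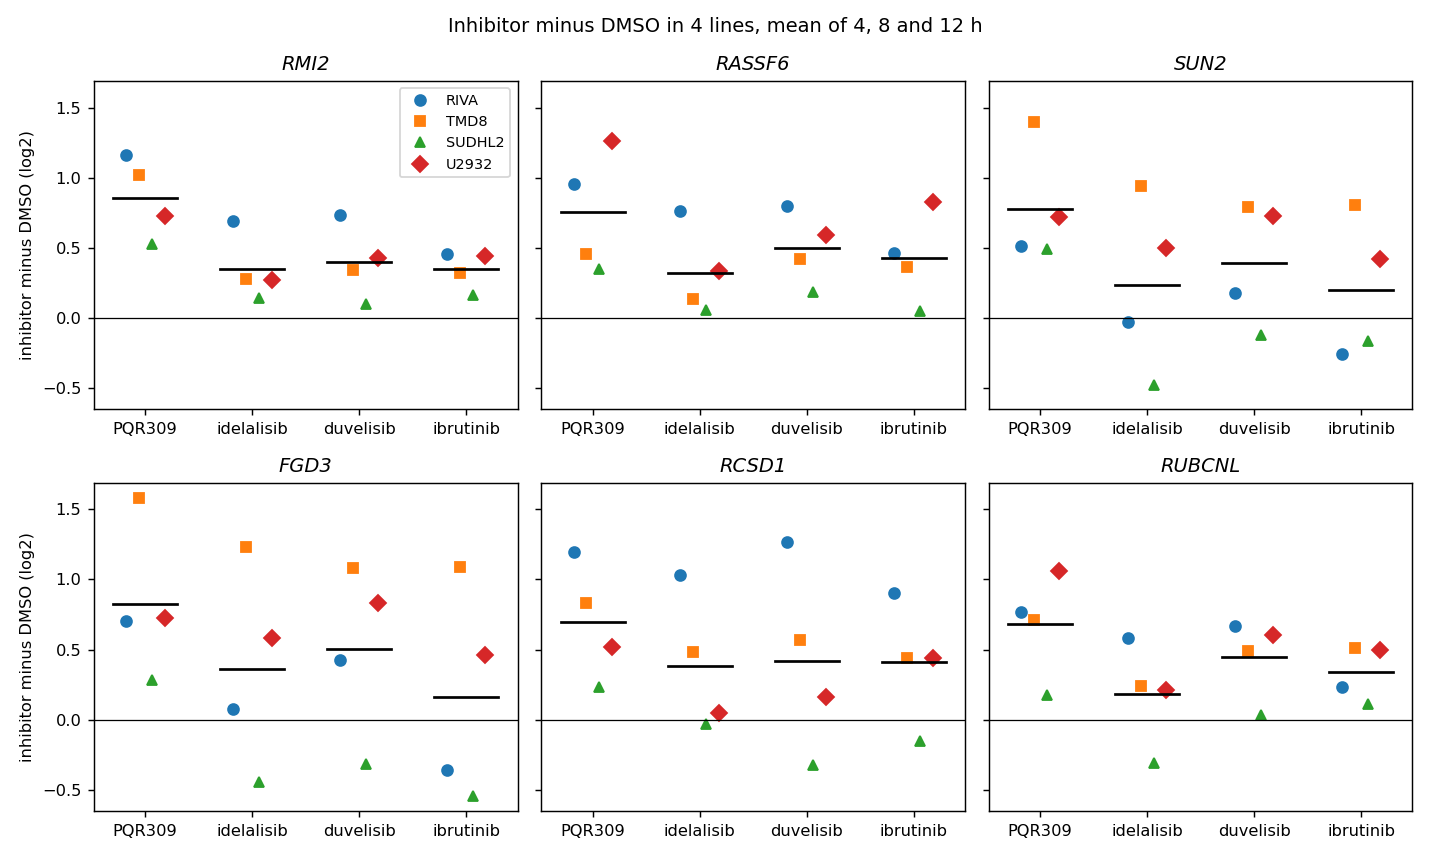
Inhibitor minus DMSO on the log2 scale (vertical axis) for each inhibitor (horizontal axis), mean of 4, 8 and 12 h. Symbols are the 4 lines and black bars their means. SUDHL2 (triangles) is the lowest line for every gene and inhibitor except SUN2 with ibrutinib, and SUN2 and FGD3 in RIVA lie near or below 0 with idelalisib and ibrutinib.

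PQR309 was set against the other inhibitors in the same lines and times, as a description because its values chose the genes. PQR309 minus idelalisib ran from 0.31 (RCSD1) to 0.55 (SUN2), PQR309 minus duvelisib from 0.23 (RUBCNL) to 0.46 (RMI2), and PQR309 minus ibrutinib from 0.29 (RCSD1) to 0.66 (FGD3). For RMI2 the value was 0.51 against idelalisib (SD 0.15 over lines, n = 4), 0.46 against duvelisib (SD 0.16) and 0.51 against ibrutinib (SD 0.22), above 0 in 4 of 4 lines each. SUN2, FGD3 and RCSD1 were above 0 in 3 of 4 lines against duvelisib. The exceptions were U2932 for SUN2 (-0.0030) and FGD3 (-0.11) and RIVA for RCSD1 (-0.075). All other gene and inhibitor pairs were above 0 in 4 of 4 lines. No dose is known, so a difference between drugs cannot be told apart from a difference in effective dose.

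Idelalisib, duvelisib and ibrutinib were compared with each other in 3 pairs, and 0 of the 6 genes were called in any of them by limma (adjusted p of 0.993 or above). Of all genes, 0% were called between duvelisib and idelalisib, 0.00796% between ibrutinib and idelalisib and 0% between ibrutinib and duvelisib. At an unadjusted p under 0.05, 271, 605 and 427 genes passed. The width of the 95% intervals differed between the genes. For RMI2, duvelisib minus idelalisib was 0.053 with an interval from -0.14 to 0.25, and ibrutinib minus idelalisib was 0.0013 with an interval from -0.19 to 0.20. FGD3 had the largest value, ibrutinib minus duvelisib at -0.35 with an interval from -0.78 to 0.086. RUBCNL with duvelisib minus idelalisib, 0.27, had an interval from 0.011 to 0.53 before adjustment for the number of genes.

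Levels at 4 and 12 h were compared within each line. SUN2 levels with PQR309 were higher at 12 h than at 4 h in all 8 lines, from 9.94 at 4 h to 10.47 at 12 h in OCILY1, from 10.03 to 10.42 in DOHH2, from 8.92 to 9.66 in TMD8 and from 8.72 to 9.45 in SUDHL2. The smallest of these changes was in SUDHL10, from 9.84 to 9.91. The mean change from 4 to 12 h on the PQR309 arrays was 0.45 ± 0.08 (limma SE, n = 8, adjusted p 0.0217), and without OCILY18 it was 0.45 with an adjusted p of 0.0564. RCSD1 rose by 0.52 ± 0.08 on the same arrays (adjusted p 0.0199), from 7.28 at 4 h to 8.24 at 12 h in TMD8 and from 7.11 to 7.33 in U2932. On raw intensities, in the lines that have them, the RCSD1 change was 0.46 with an adjusted p of 0.143. These were 2 of the 6 genes called, where 2.52% of all genes were called in either direction. The same arrays had been used to choose the genes, so the count is not apart from the choice. On the DMSO arrays 0 of the 6 genes were called between 4 and 12 h by limma (background 7.64%, adjusted p from 0.141 to 0.916). The change there was 0.17 for RCSD1, with an unadjusted p of 0.0258, and -0.10 for SUN2.

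The PQR309 minus DMSO difference itself was larger at 12 h than at 4 h for SUN2 and RCSD1, 2 of the 6 genes, where 10.4% of all genes were called in either direction by limma. The choice of the genes used the mean over the times of the same arrays. SUN2 differences by line at 4, 8 and 12 h were 0.33, 1.09 and 1.40 in DOHH2, 0.43, 1.10 and 1.19 in TMD8, 0.54, 1.02 and 1.04 in RIVA, and 0.21, 0.38 and 0.60 in SUDHL2. They were 0.63, 0.82 and 0.87 in U2932, 0.73, 1.01 and 0.87 in OCILY18, -0.29, 0.71 and 1.28 in OCILY1, and 0.78, -0.014 and 0.54 in SUDHL10. Thus 7 of 8 lines were higher at 12 h than at 4 h and SUDHL10 was lower. The mean gain was 0.56 ± 0.16 (adjusted p 0.0447). It lost the call when any of 7 lines was left out, with 0.48 and an adjusted p of 0.101 without DOHH2, 0.41 and 0.0583 without OCILY1, 0.61 and 0.0579 without OCILY18, 0.56 and 0.0882 without RIVA, 0.58 and 0.0777 without SUDHL2, 0.53 and 0.0846 without TMD8, and 0.60 and 0.0652 without U2932. On raw intensities, with OCILY1 and DOHH2 left out, the gain of SUN2 was 0.22 (limma adjusted p 0.769). OCILY1 and DOHH2 had the largest gains by the normalized values, 1.57 and 1.08. The raw intensities of RIVA, TMD8, SUDHL2 and U2932 were those of the other arrays. The fall from 0.56 therefore cannot be laid to the processing alone.

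RCSD1 gained in 8 of 8 lines, from 0.045 in DOHH2 to 0.86 in TMD8, with a mean of 0.35 ± 0.08 (limma adjusted p 0.0191). Without RIVA it was 0.34 with an adjusted p of 0.0516. On raw intensities, again with OCILY1 and DOHH2 left out, it was 0.31 with an adjusted p of 0.610. RASSF6 stood at 0.27 (adjusted p 0.0638) and passed without SUDHL2 (0.33, adjusted p 0.0347). FGD3 stood at 0.22 (adjusted p 0.362) and RUBCNL at 0.18 (adjusted p 0.188). RMI2 stood at 0.049, with a 95% interval from -0.11 to 0.21 and an adjusted p of 0.733. Its mean difference was 0.70 at 4 h, 0.93 at 8 h and 0.75 at 12 h, so the value at 4 h was already near that at 12 h.

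**Figure D3:**
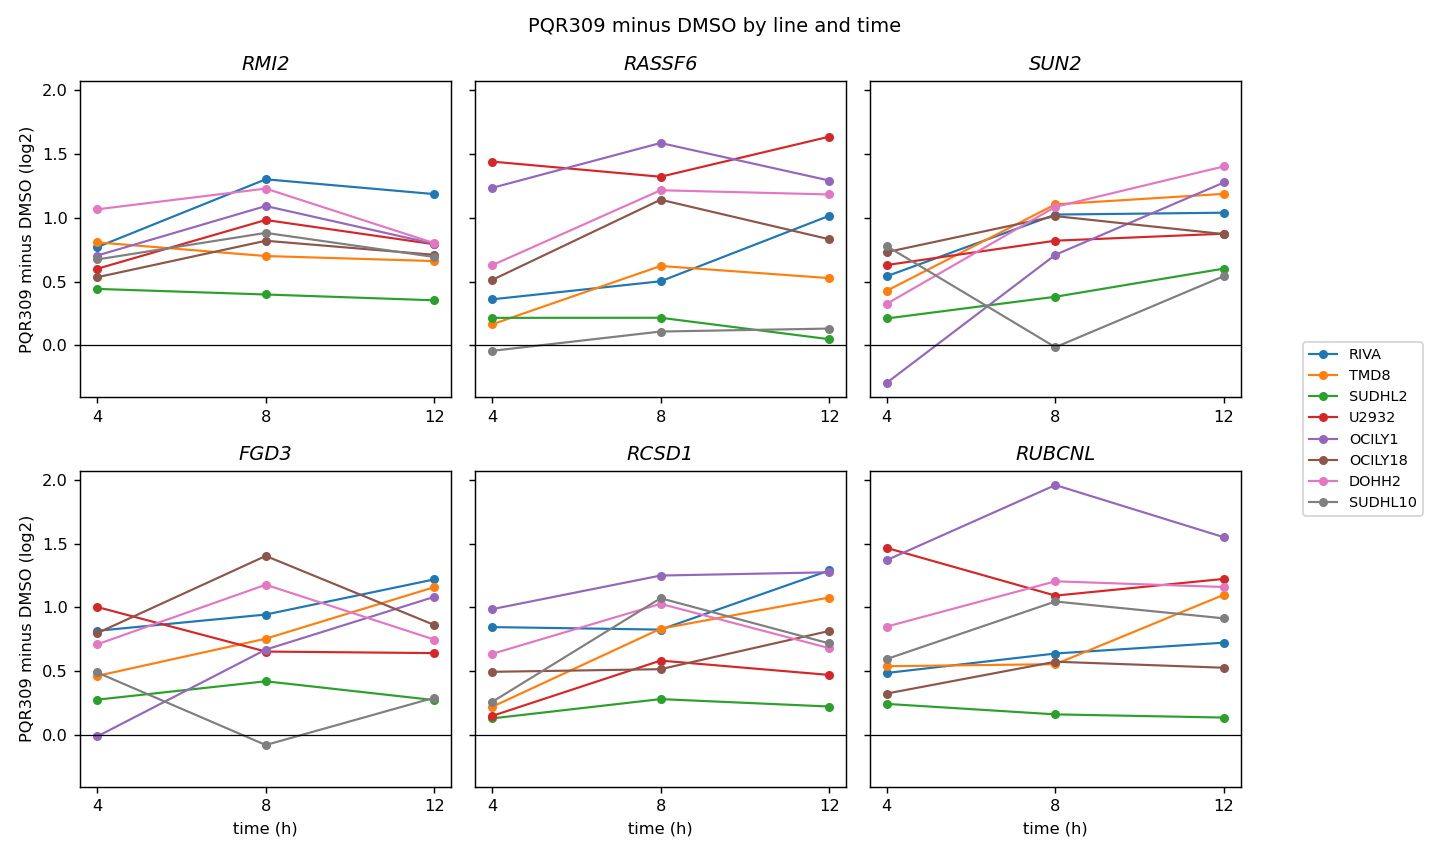
PQR309 minus DMSO on the log2 scale (vertical axis) at 4, 8 and 12 h (horizontal axis), with 1 coloured line per cell line. SUN2 and RCSD1 are higher at 12 h than at 4 h in 7 and 8 of 8 lines, and the SUN2 value of OCILY1 starts at -0.29.

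**Figure D4:**
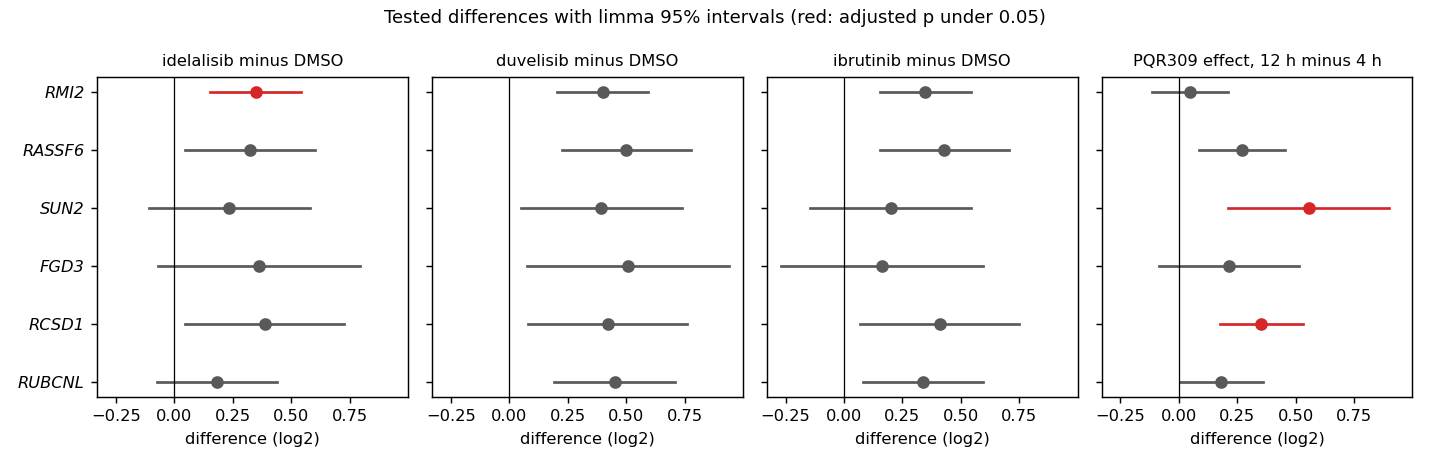
Estimates (points) and 95% limma intervals (bars, before adjustment for the number of genes) on the log2 scale for the tested differences of each gene. Red marks an adjusted p under 0.05, which holds for RMI2 with idelalisib and for SUN2 and RCSD1 in the change of the PQR309 difference with time.

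The differences of the 6 genes did not all vary together. Across the 24 line and time pairs of PQR309 minus DMSO, Pearson's r between 2 of the genes ran from 0.13 to 0.79, with a median of 0.40 over the 15 gene pairs. The highest was SUN2 with FGD3 at 0.79. The points share lines and DMSO arrays, so these values are a description. Among all other genes, the pattern most like that of RMI2 was found in FBXO3 and CCDC28A (r = 0.74 for each). For RASSF6 it was NEIL1 (0.83) and RASAL1 (0.81), for SUN2 ZHX2 (0.84) and YIPF3 (0.81), and for FGD3 DCLRE1C (0.81) and ABTB1 (0.78). RCSD1 was most like FCMR (0.80) and GMFG (0.79), and RUBCNL was most like GCSAM and VAV3 (0.79 for each). The mean PQR309 minus DMSO difference of these 12 genes ran from 0.094 (FBXO3) to 0.66 (CCDC28A), both named for RMI2, whose own mean was 0.79.

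The known partners of each gene were read with PQR309 in the 8 lines, by limma over all 12441 genes, of which 12.5% were called higher and 14% lower. Of 99 measured partners in 6 lists, 20 were higher and 11 lower. Among partners of RMI2 in the BLM complex and in recombination, 4 of 13 were higher and 0 lower, by small amounts: BRCA1, which acts in recombination repair, by 0.21 (adjusted p 0.00371), RECQL5 by 0.21 (0.00993), TOP3B by 0.14 (0.0208) and the helicase BLM by 0.092 (0.0328). TOP3A, the gene of topoisomerase III alpha, and RMI1 were not called, at -0.0059 (adjusted p 0.922) and -0.033 (0.701). The median of this list was 0.085, against -0.00012 over all genes. In the change of the PQR309 difference from 4 to 12 h, 0 of the 13 were called higher and 2 lower by limma. These were RECQL4, at -0.49 (adjusted p 0.00152), and BLM, at -0.30 (0.0277), where 10.4% of all genes were called in either direction. 

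For SUN2, 4 of 19 partners of the LINC complex and the nuclear envelope were higher and 1 lower, with a list median of -0.024. SYNE2, which encodes nesprin-2, the protein that SUN2 binds across the nuclear envelope, was higher by 0.55 (adjusted p 0.00820). The inner membrane protein genes LEMD3 and LEMD2 were higher by 0.23 (0.00120) and 0.15 (0.00867), and TMEM201 was lower, at -0.20 (0.00434). In the change of the PQR309 difference from 4 to 12 h, 1 of the 19 partners was called higher and 1 lower, where 10.4% of all genes were called in either direction. These were SYNE2, at 0.56 ± 0.09 (adjusted p 0.00474), and BANF1, at -0.38 ± 0.06 (0.00440).

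For RUBCNL, 7 of 19 genes of the class III PI3K complex and of autophagosome fusion were higher and 0 lower, with a list median of 0.037. ATG14, the subunit that directs the complex to autophagosomes, was higher by 0.31 (adjusted p 0.00433). The genes of the HOPS tethering complex VPS16 and VPS41 were higher by 0.27 (0.0264) and 0.23 (0.0115), and PIK3C3, the lipid kinase itself, by 0.17 (0.0423). VPS11, VPS39 and BECN1 were higher as well, by 0.10 to 0.15.

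For RASSF6, 3 of 16 genes of the RASSF family and the Hippo kinases were higher and 3 lower, with a list median of 0.0076. RASSF2, a relative of RASSF6, was lower, at -0.49 (adjusted p 0.00875), and so was the kinase adaptor MOB1A, at -0.26 (0.00123). MOAP1, a BAX activator that binds RASSF1A, was higher by 0.22 (0.00476). For FGD3, 1 of 14 genes was higher and 2 lower, with a list median of -0.0073: CDC42SE2 at 0.12 (0.0316), PAK2 at -0.14 (0.0166) and CDC42SE1 at -0.12 (0.0218). For RCSD1, 1 of 18 was higher and 5 lower, with a list median of -0.023. The lower genes included PFN1, which encodes profilin, at -0.20 (0.0267), the stress kinase gene MAPK12 at -0.18 (0.00186), TWF1 at -0.18 (0.00330) and CAPZA1, a subunit of the capping protein that RCSD1 binds, at -0.15 (0.00543). In the change of the PQR309 difference from 4 to 12 h, 3 of the 14 genes for FGD3 were called higher and 0 lower. They were CDC42SE1 at 0.44 (limma adjusted p 0.00624), CDC42SE2 at 0.35 (0.0401) and IQGAP1 at 0.31 (0.0423). MOAP1 was higher there by 0.37 (0.00639), and CAPZB of the RCSD1 list was lower, at -0.29 (0.0195). Of all genes, 10.4% were called there in either direction.

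Partners were also read with the other inhibitors in the 4-line fit, whose counts cannot be set against those of the 8-line fit. By limma, idelalisib gave 5 higher and 1 lower of 101, where 2.75% of all genes were called higher and 1.92% lower. Duvelisib gave 0 of 101, and ibrutinib 1 higher and 1 lower of 101, which is near its background of 1.19% and 1.78%. TOR1AIP1, an inner nuclear membrane protein gene, was higher by 0.30 with idelalisib (adjusted p 0.0124) and by 0.23 with ibrutinib (0.0458). SUN1, the paralogue of SUN2, was higher by 0.25 with idelalisib (0.0467). VPS41 and BECN1 were higher by 0.28 (0.0311) and 0.26 (0.0288) with idelalisib, and the kinase gene MAPK8 by 0.31 (0.0312). FGD2, a relative of FGD3, was lower, at -0.42 with idelalisib (0.0204) and -0.41 with ibrutinib (0.0353), while FGD3 itself had estimates of 0.36 and 0.16 that did not pass.

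Marker genes also moved with PQR309. Of 4 measured B-cell markers, CD79B was higher by 0.32 (limma adjusted p 0.0262) and MS4A1, which encodes CD20, was lower, at -0.51 (0.0192). Of 3 measured myeloid markers, CD68, a lysosomal protein gene, was higher by 0.16 (0.00965). Their part in the differences of the 6 genes was not tested.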

How the data were processed

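The authors deposited normalized log2 values and raw probe intensity values, with GenomeStudio named in the submitters' processing notes (its version is not given in the sources used here). In the deposited log2 values, 48 arrays (DMSO and PQR309, median 6.64) and 36 arrays (other inhibitors, median 6.66) were normalized apart by the authors, and no level was set across them. The raw intensity values the authors deposited cover 81 arrays, with medians from 78.3 to 139.7, and a detection p-value in place of intensity for 3 OCILY1 arrays, which gave the detection limit. By probe order, 54 of these arrays match the deposited log2 columns. The other 27, with rank correlations from 0.816 to 0.910, are those of the 24 DMSO and PQR309 samples of the 4 lines and of 3 DOHH2 samples. They were taken as other arrays, but why their probe order differs is not stated in the sources used here.

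The 60 raw arrays of the 4 lines were corrected by normexp (offset 50), quantile normalized and put on the log2 scale in limma 3.58.1 (R 4.3.3, data.table version 1.17.8), with figures from Python 3.11.15 and matplotlib 3.10.9. Of 47231 probes, 30113 carried 1 gene symbol, 8 several and 17110 were unnamed. Probes in the dimmer 50% were dropped, and a gene was read from its brightest probe. By the limit of 6.73, 3 of 288 values of the 6 genes in the 48 arrays lay below it, all RASSF6 in SUDHL10. In the 60 arrays, where a stand-in limit of 6.27 leaves the same share of probes, 0 of 360 did. The number of lines limits the precision. Pairing is by line: after removal of treatment means, profiles of a line had correlations from 0.925 to 0.954 (8 lines) and from 0.877 to 0.980 (4 lines). Tests are limma's moderated tests, two-sided, Benjamini-Hochberg adjusted over all genes kept, with a threshold of 0.05, and they were tested on simulated data. Alternatives were each line left out, each time alone, no filter, all probes averaged, other normalizations, the other deposited values and no pairing, and, added after seeing the data, TMD8 at 12 h left out. The 6 genes, the partner lists, the rules for naming genes (for each list up to 4 genes with the largest called differences, for each gene the 2 most alike) and the tests were chosen with earlier results of these data known. Levels of different genes were not compared. 0 per-sample columns were left unused.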

Additional observations from a re-analysis of the deposited data

Results flagged for a closer look

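The PQR309 minus DMSO difference of SUN2 differed between times, being larger at 12 h than at 4 h by 0.56 on the log2 scale (limma adjusted p 0.0447, n = 8 lines, larger in 7 of 8). The same was found for RCSD1, with 0.35 (adjusted p 0.0191, larger in 8 of 8 lines). The choice of the genes used the mean over the times of the same arrays. SUN2 lost the call when any of 7 lines was left out and with no filter on dim probes. On raw intensities, with OCILY1 and DOHH2 left out, SUN2 had 0.22 (limma adjusted p 0.769) and RCSD1 0.31 (0.610). RCSD1 also lost the call without RIVA, and both genes lost it without pairing by line. No line stood far from the others in any of the 42 sets of line values looked at, where chance would place about 1 in 20 apart.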

How the results depend on the processing

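For the 3 comparisons with any of the 6 genes called, 20 of 37 alternative counts were lower by over 1.5 times and 17 were not. For the 8 with 0 called, 105 of 108 stayed at 0. None of the alternatives reversed a called value. Without pairing by line (no replicate block), 0 genes were called with idelalisib and 0 in each PQR309 time comparison. With idelalisib the count of 1 also became 0 at 4 h alone, at 12 h alone, with median centring and with no filter on dim probes, and it ran from 0 to 1 when a line was left out. With duvelisib it became 1 at 8 h alone and ran from 0 to 2 with a line left out, and with ibrutinib from 0 to 1. The raw intensities of RIVA, TMD8, SUDHL2 and U2932 are those of the other arrays, and OCILY1 lacks them at 4 h with PQR309. That setting therefore changes the samples as well as the processing. The change of the PQR309 difference with time had 1 gene called with no filter and from 0 to 2 with a line left out. It had 0 on raw intensities, with OCILY1 and DOHH2 left out. On PQR309 arrays the count was 1 on raw intensities and from 1 to 2 with a line left out. Counts over all genes moved more. With idelalisib the 586 called genes became 0 without RIVA, without TMD8, with median centring, without pairing and at 12 h alone, 214 without U2932, 42 at 4 h and 156 at 8 h. With ibrutinib the 373 became 66 with no filter, 2 without RIVA or TMD8, 3 without U2932, 0 with median centring, without pairing and at 12 h, 9 at 4 h, 5 at 8 h and 611 with TMD8 at 12 h left out. With duvelisib the 2 became 108 without SUDHL2, 92 at 8 h alone, 1 with TMD8 at 12 h left out, and 0 without RIVA or TMD8, with median centring, with all probes averaged, without pairing, at 4 h and at 12 h. The time change of the PQR309 difference ran from 722 to 1437 genes with a line left out (reported 1292). It was 0 without pairing, and 0 on raw intensities with OCILY1 and DOHH2 left out. For the PQR309 arrays it ran from 66 to 451 (reported 313), with 34 on raw intensities and 0 without pairing, and for DMSO from 339 to 902 (reported 950), with 21 and 0. The cause was not tested in these cases. The line groups gave from 0 to 3 genes for the DMSO level with a line left out, the 3 without U2932. Without a second array per line and time, array error could not be measured.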
